A study of Mus musculus with 6 samples.

Results

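Macrophages are the main immune cells of the embryonic eye, and 10 genes that mark them were measured here in the posterior eye of Oa1-/- and wild-type (WT) mouse embryos. The genes were Csf1r, Cx3cr1, C1qa, C1qb, C1qc, Tyrobp, Fcer1g, Aif1, Mrc1 and Lyz2. They were taken by their gene symbol in the annotation of the Affymetrix Mouse 430 2.0 array, and all 10 had a probe set, among 18194 genes with a symbol. Together they had 15 probe sets, of which 14 were bright enough to be tested.

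The 3 Oa1-/- samples and the 3 WT samples each came from 1 dam killed at embryonic day 15.5, and each pooled the eyes of 6 embryos. The anterior segments had been removed, so the RNA came from the posterior segment. Oa1, now named Gpr143, is the ocular albinism gene, and its product is a receptor in the melanosome membrane of pigment cells. Strain, embryo sex and how much of the gene was removed are not stated in the labels. Each replicate was thus a litter pool. Since whole tissue was measured, fewer macrophages and less RNA per macrophage cannot be told apart.

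Macrophages reach the eye from the yolk sac and later the liver of the embryo. Some settle in the retina as microglia, and others line the hyaloid vessels, which feed the growing lens and retina and are later removed with their help. Their survival depends on the receptor encoded by Csf1r. Their surface receptors signal through small adaptor proteins such as Tyrobp and Fcer1g, and they are a main source of C1q, the protein that starts the classical complement pathway and tags cells and synapses for engulfment.

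The promoters of several of these genes carry the purine-rich core that ETS family factors bind, among them PU.1, the master regulator of macrophages, encoded by Spi1. The letters GGAAGT, or ACTTCC on the other strand, were looked for in the 250 bases before the start of each gene in RefSeq's promoter windows (GRCm38.p6). Promoters of 7 of the 10 genes were matched and 4 held the motif, and 19.7% of all 32851 windows held it. The matches of C1qb, C1qc, Lyz2 and Mrc1 are shown because they hold the motif in the genes measured below, with 20 bases on either side. Each is written in the direction of its gene, with the match in capitals. A match is a description of these letters and not a site shown to be bound.
C1qb: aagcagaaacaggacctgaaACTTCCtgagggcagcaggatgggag
C1qc: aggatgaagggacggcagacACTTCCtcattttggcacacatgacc
Lyz2: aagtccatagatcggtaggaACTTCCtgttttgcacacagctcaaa
Mrc1: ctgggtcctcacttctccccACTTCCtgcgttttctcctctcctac
These windows lie at chr4:136886228-136886273 on the minus strand for C1qb, at chr4:136893084-136893129 on the minus strand for C1qc, at chr10:117282347-117282392 on the minus strand for Lyz2 and at chr2:14229183-14229228 on the plus strand for Mrc1. The nearest base of the match lay 48 bases before the start in C1qb, 190 in C1qc, 95 in Lyz2 and 206 in Mrc1. Spi1 itself read 55.7, 75.7 and 69.5 in Oa1-/- and 61.4, 48.4 and 58.0 in WT, with a mean under the filter, and it was not tested.

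The values are MAS5 signals on a linear scale, with every array scaled to the same trimmed mean. Array medians ran from 93.6 to 129 in Oa1-/- and from 108 to 121 in WT, and the highest bacterial control read 22.1 to 39.3 in Oa1-/- and 29.9 to 32.3 in WT, which gives an idea of the background. Gpr143 (1420581_at) read 28.3, 39.1 and 6.02 in Oa1-/- and 250, 257 and 246 in WT, a log2 change of −2.82 (limma adjusted p = 0.318). Among all 27029 probe sets tested, 0 had an adjusted p below 0.05 in limma, which is 0%, and 1110 had an unadjusted p below 0.05. WT replicate 3 stood apart by the Y-linked gene Eif2s3y, at 9.26 against 406 or more on the other arrays, and Oa1-/- replicate 1 led the first principal component (46.0% of the variance). The array's 18S rRNA controls were higher on every Oa1-/- array than on any WT array, at 2608 to 6348 in Oa1-/- and 1476 to 1988 in WT for the 3' probe set; the part of this difference in the results below was not tested.

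All 10 macrophage and microglia genes had a mean signal above the highest bacterial control, and no genotype difference among them passed the test. None of the 14 tested probe sets passed the threshold in limma at an adjusted p below 0.05, and 0 of 14 had an unadjusted p below 0.05. Of these, 9 lay on the positive and 5 on the negative side in log2 change (Oa1-/- minus WT, on the log2(signal + 16) scale), with a median of 0.02. Over all probe sets tested the median was −0.01 and 47.4% were positive. The 95% interval of the change stayed within 1.5-fold in either direction for 12 of the 14, and within 2-fold for all 14. Cx3cr1 (1450020_at) and Aif1 had intervals that reached past 1.5-fold. The summed signal of the brightest probe set of each gene was 4765, 4970 and 4812 in Oa1-/- and 4975, 5177 and 4755 in WT, so the groups overlapped.

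**Figure D1:**
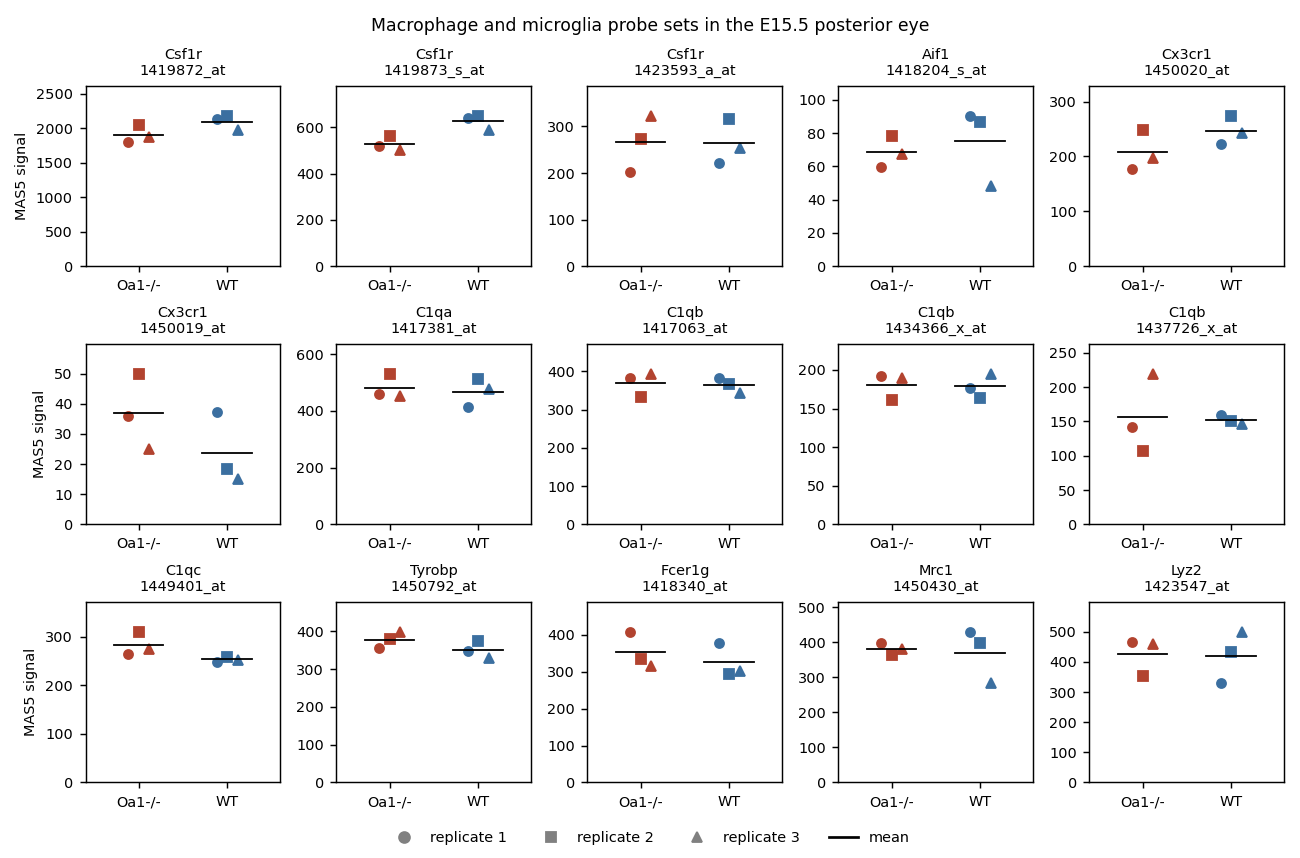
MAS5 signal (linear axis from 0) of the 15 probe sets on each array, Oa1-/- left and WT right, with the replicates as symbols and the group mean as a line. The groups overlap in 13 of the 15 panels; Csf1r 1419873_s_at is lower and C1qc higher on all 3 Oa1-/- arrays.

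Among the receptors, Csf1r encodes the receptor for the growth factors CSF1 and IL-34. Its brightest probe set, 1419872_at, read 1794, 2043 and 1874 in Oa1-/- and 2131, 2180 and 1978 in WT. The groups overlapped by 1 array on each side, with means of 1904 ± 127 in Oa1-/- and 2096 ± 106 in WT (SD, n = 3 each). The log2 change was −0.14 (SE 0.09, 95% interval −0.34 to 0.06, limma adjusted p = 0.985).

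Another Csf1r probe set, 1419873_s_at, read 519, 561 and 503 in Oa1-/- and 642, 650 and 587 in WT. All 3 Oa1-/- arrays lay below all 3 WT arrays, as they did for 5.31% of all probe sets tested. Its log2 change of −0.24 (SE 0.11, 95% interval −0.49 to 0.00271) had the smallest unadjusted p among the probe sets of these genes, 0.0521 in limma, and an adjusted p of 0.985. Without both arrays that stood apart the change was −0.28, and leaving out 1 array at a time gave −0.29 to −0.21.

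The third Csf1r probe set, 1423593_a_at, did not share this pattern. It read 203, 272 and 323 in Oa1-/- and 221, 316 and 253 in WT, so the groups overlapped across nearly their whole range, with a log2 change of 0.00433 (SE 0.21). Across the 6 arrays 1419872_at and 1419873_s_at followed each other (Pearson r = 0.92, a description), while the third had r = 0.29 and r = 0.0067 with them. Which part of the transcript each probe set reads was not analysed here.

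Cx3cr1 encodes the receptor for fractalkine, through which neurons and vessels signal to microglia. Its brighter probe set, 1450020_at, read 177, 248 and 197 in Oa1-/- and 223, 274 and 243 in WT. Oa1-/- replicate 2 lay within the WT range and the other two below it. The log2 change of −0.24 (SE 0.17, 95% interval −0.64 to 0.15, limma adjusted p = 0.985) was −0.15 without both arrays that stood apart. The dimmer probe set, 1450019_at, read 35.8, 49.9 and 25.1 in Oa1-/- and 37.4, 18.2 and 15.2 in WT. These signals lie around the bacterial controls, and the probe set was not tested.

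The 3 chains of C1q come from C1qa, C1qb and C1qc, which are neighbours on chromosome 4 in the order C1qb, C1qc, C1qa, with no protein-coding gene between them in RefSeq. C1qa (1417381_at) read 458, 530 and 452 in Oa1-/- and 415, 511 and 476 in WT. The highest and the lowest value belonged to different genotypes and the ranges overlapped. Its means were 480 ± 43.4 in Oa1-/- and 467 ± 48.5 in WT (SD, n = 3 each), a log2 change of 0.04 (SE 0.13, 95% interval −0.25 to 0.33, limma adjusted p = 0.994).

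C1qb (1417063_at) read 383, 332 and 393 in Oa1-/- and 381, 367 and 342 in WT, with a log2 change of 0.02 (SE 0.13). The lowest and the highest values were both Oa1-/-. Its probe set 1434366_x_at had the same change to 2 decimals, 0.02 (SE 0.16), at 193, 161 and 189 in Oa1-/- and 177, 164 and 195 in WT. The probe set 1437726_x_at had a change of −0.02 (SE 0.25) and more scatter in Oa1-/-, at 142, 106 and 219, than in WT, at 159, 150 and 146.

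C1qc (1449401_at) read 264, 310 and 275 in Oa1-/- and 249, 259 and 252 in WT. All 3 Oa1-/- arrays lay above all 3 WT arrays, as they did for 4.92% of all probe sets tested. The means were 283 ± 23.7 in Oa1-/- and 253 ± 5.30 in WT (SD, n = 3 each), a ratio of 1.12. The log2 change was 0.15 (SE 0.13, 95% interval −0.16 to 0.46, limma adjusted p = 0.985), and without Oa1-/- replicate 2 it was 0.08.

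The adaptors Tyrobp, also called DAP12, and Fcer1g, the Fc receptor gamma chain, carry the activation motif of receptors that have no signalling domain of their own. Tyrobp (1450792_at) read 355, 378 and 398 in Oa1-/- and 348, 374 and 330 in WT, with a log2 change of 0.10 (SE 0.12, 95% interval −0.18 to 0.38, limma adjusted p = 0.985). Oa1-/- replicates 2 and 3 lay above every WT array and replicate 1 within the WT range. Fcer1g (1418340_at) read 407, 333 and 315 in Oa1-/- and 379, 293 and 303 in WT, with a log2 change of 0.11 (SE 0.16, 95% interval −0.25 to 0.47, limma adjusted p = 0.985). The first replicate was the highest in both genotypes, and without both arrays that stood apart the change was −0.04.

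Aif1, which encodes the actin-binding protein Iba1, a common stain for microglia, lay nearest to the filter among the tested genes. Its probe set 1418204_s_at read 59.9, 78.4 and 67.2 in Oa1-/- and 90.3, 86.4 and 48.2 in WT. Its mean of 71.7 over the 6 arrays lay just above the filter at 66.0. WT held both the highest value and, on replicate 3, the lowest, so the log2 change of −0.08 (SE 0.27, 95% interval −0.69 to 0.53) ran from −0.31 to 0.05 when 1 array at a time was left out.

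Mrc1 encodes the mannose receptor of tissue and perivascular macrophages. Its probe set 1450430_at read 400, 364 and 381 in Oa1-/- and 430, 397 and 284 in WT, with a log2 change of 0.06 (SE 0.17, limma adjusted p = 0.992). WT replicate 3 was the lowest array, and without both arrays that stood apart the change was −0.14. Lyz2 encodes the lysozyme of macrophages and granulocytes and lies next to its near copy Lyz1 in RefSeq, so signal from that gene may be included. Its probe set 1423547_at read 467, 352 and 460 in Oa1-/- and 329, 434 and 499 in WT, with a log2 change of 0.03 (SE 0.18, limma adjusted p = 0.997). The ranges overlapped almost completely.

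**Figure D2:**
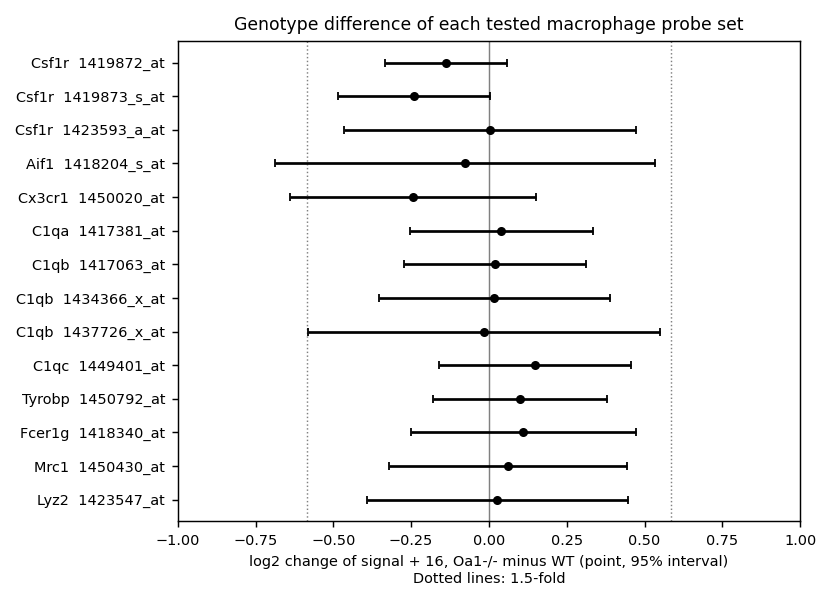
Log2 change (Oa1-/- minus WT, log2(signal + 16) scale) of the 14 tested probe sets with 95% intervals from limma; dotted lines mark 1.5-fold. Every interval contains 0, and only those of Cx3cr1 and Aif1 cross a dotted line, both on the lower side.

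The markers did not vary as one group from array to array. Over the 45 pairs of genes, each by its brightest probe set, Pearson's r across the 6 arrays ran from −0.80 (Aif1 with Lyz2) to 0.87 (Csf1r with Cx3cr1), with a median of 0.000955. In all, 24 pairs had a positive r and 21 a negative one. Among the C1q chains, C1qa and C1qc had r = 0.64, C1qb and C1qc −0.45 and C1qa and C1qb −0.72. These values are descriptions over 6 arrays that share their scaling. Probe sets of the same gene also differed, with r from 0.40 to 0.79 for C1qb, 0.0067 to 0.92 for Csf1r and −0.29 for Cx3cr1. Whether the genes vary apart beyond such scatter was not tested.

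No array was high or low for most of the genes. WT replicate 3 held the lowest value for 4 of the 15 probe sets and the highest for 2, and Oa1-/- replicate 3 the highest for 4 and the lowest for 1. The median deviation from the probe set's mean ran over the arrays from −0.04 to 0.07 on the log2 scale. The highest array was 1.19 times the lowest for C1qb (1417063_at), 1.22 for Csf1r (1419872_at), 1.87 for Aif1 and 3.29 for the dim Cx3cr1 probe set.

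**Figure D3:**
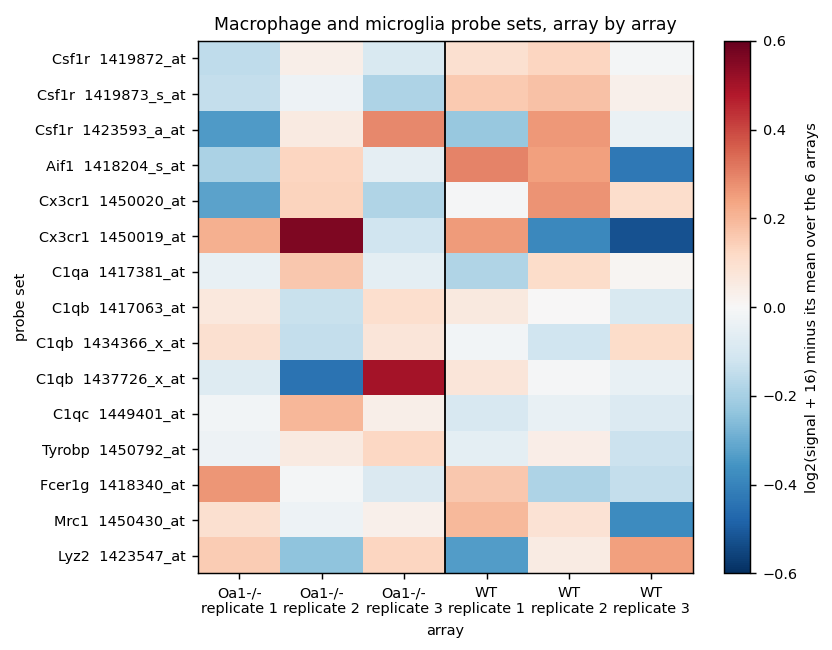
Log2(signal + 16) of each probe set (rows) on each array (columns, Oa1-/- left of the line and WT right of it) minus its mean over the 6 arrays. No column is of 1 colour throughout; the strongest colours belong to Cx3cr1 1450019_at, C1qb 1437726_x_at and Aif1.

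The probe sets whose pattern over the 6 arrays was most like the average of the 10 genes were not on the macrophage and microglia lists used here. They were Syt7, a synaptotagmin (r = 0.997), Hmmr, a hyaluronan receptor of dividing cells (0.994), Zfp133-ps (0.993) and the SUMO protease Senp2 (0.993). The last was Flt1, a VEGF receptor on the endothelial list here and not only found in endothelial cells (0.989). Of 22928 probe sets compared, 226 had an r above 0.9.

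Ligands of Csf1r and Cx3cr1 (Csf1, Il34 and Cx3cl1) and other survival and chemokine signals were also measured. Of 9 genes in this list, 8 had a probe set and 5 were tested, and all 5 had a positive log2 change with a median of 0.11. None passed the adjusted threshold. Csf1, the growth factor of the Csf1r receptor, averaged 275 ± 43.7 in Oa1-/- and 261 ± 22.2 in WT (SD, n = 3 each), and Cx3cl1, fractalkine, 182 ± 28.8 in Oa1-/- and 162 ± 34.7 in WT. The log2 changes of the 3 tested probe sets of Csf1 ran from 0.00394 to 0.51. Il34, the other ligand of Csf1r, read 36.1, 49.4 and 57.4 in Oa1-/- and 33.1, 69.7 and 51.9 in WT and was not tested. Kitl, the ligand of the Kit receptor of mast cells and melanocytes, read 1707, 1663 and 1605 in Oa1-/- and 1343, 1561 and 1245 in WT. It was the only gene of the list with an unadjusted p below 0.05 (0.0297 in limma, adjusted p = 0.985, log2 change 0.27), against 1.64% of all probe sets with such a p and a positive change. By the probe set used here, all Oa1-/- arrays of Kitl lay above all WT arrays, as for 4.92% of all probe sets. The 3 tested probe sets of Kitl ran from 0.05 to 0.27. Tgfb1 (log2 change 0.11) and the chemokine Cxcl12 (0.02) were the other genes tested. Without WT replicate 1 the change of Cx3cl1 was 0.00284.

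Partners of C1q in the complement system gave no call. Of 22 genes, 16 had a probe set and 10 were tested, 4 with a positive and 6 with a negative change (median −0.02), and 0 had an unadjusted p below 0.05. Itgb2, the beta chain of complement receptor 3, had a log2 change of 0.26. All its Oa1-/- arrays lay above all WT arrays, as for 4.92% of all probe sets. The anaphylatoxin receptor C3ar1 had changes of −0.15 and 0.15 by its 2 tested probe sets, the C1 inhibitor Serping1 −0.08, and properdin, Cfp, −0.38. By the brighter of its 2 tested probe sets, Cfp read 254, 715 and 625 in Oa1-/- and 677, 573 and 661 in WT. The difference by this probe set lay in Oa1-/- replicate 1. The other probe set of Cfp had a change of −0.54. C1qbp, a mostly mitochondrial protein named for binding C1q, had a log2 change of 0.04.

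Receptors and signalling proteins linked to the Tyrobp and Fcer1g pathways, some of them inhibitory, such as Fcgr2b, gave no call either. Of 22 genes, 19 had a probe set and 10 were tested, 6 with a positive and 4 with a negative change (median 0.03), and none had an unadjusted p below 0.05. The Fc gamma receptors Fcgr2b and Fcgr3 averaged 368 ± 91.9 and 196 ± 12.5 in Oa1-/-, against 443 ± 66.1 and 225 ± 23.8 in WT (SD, n = 3 each). The kinase Fgr had a log2 change of 0.27, with all Oa1-/- arrays above all WT arrays, as for 4.92% of all probe sets. The receptor Trem1 had a change of 0.44. Trem2, the microglial receptor that signals through Tyrobp, read 9.51 to 16.2 in Oa1-/- and 14.5 to 27.9 in WT, at the level of the bacterial controls or below.

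Myeloid transcription factors had 7 positive and 3 negative changes among 10 tested of 13 measured (median 0.02), with 0 at an unadjusted p below 0.05. Cebpa, a factor of the myeloid lineage, read 69.4, 55.7 and 77.3 in Oa1-/- and 88.3, 94.6 and 122 in WT, so no Oa1-/- array reached the WT range, as for 5.31% of all probe sets (log2 change −0.49, limma adjusted p = 0.985). Nr1h3, a sterol-sensing nuclear receptor, had a change of 0.18, with all Oa1-/- arrays above all WT arrays, as for 4.92% of all probe sets. Id2 and Myb, which other embryonic cells also express, had changes of 0.12 and 0.08. The 3 tested probe sets of Id2 ran from −0.18 to 0.25.

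Of the genes found in most macrophages, 20 of 21 were tested, 6 with a positive and 14 with a negative change (median −0.09). All but 1 of the 21 had a mean above the highest bacterial control. Several of these genes, such as Ctss, are also expressed by other cells. Laptm5, a lysosomal membrane protein of blood cells, was the only one with an unadjusted p below 0.05, in the negative direction, as for 2.46% of all probe sets. Its probe set 1436905_x_at read 253, 250 and 217 in Oa1-/- and 313, 313 and 285 in WT (log2 change −0.32, limma adjusted p = 0.985). The gene's 2 other tested probe sets had positive changes, up to 0.27. The adaptor Fyb had a change of −0.38, Lst1 −0.30, Dock2 0.55 and the protease Ctss 0.07. Fyb and Dock2 had means of 68.7 and 66.4, just above the filter at 66.0. Dock2 read 54.6, 71.8 and 123 in Oa1-/- and 45.2, 63.4 and 40.8 in WT. Adgre1, the F4/80 antigen, read 206 to 214 in Oa1-/- and 206 to 220 in WT.

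Genes enriched in microglia had 5 positive and 4 negative changes among 9 tested of 11 measured (median 0.03). Tmem119 and P2ry6 were the 2 with an unadjusted p below 0.05, both in the negative direction, as for 2.46% of all probe sets, and in both all Oa1-/- arrays lay below all WT arrays, as for 5.31%. Tmem119 read 444, 419 and 474 in Oa1-/- and 580, 553 and 661 in WT and had a log2 change of −0.41 (SE 0.12, unadjusted p = 0.00781, limma adjusted p = 0.985). P2ry6, a receptor for nucleotides released by damaged cells, read 43.5, 77.8 and 87.4 in Oa1-/- and 102, 108 and 126 in WT (log2 change −0.62, limma adjusted p = 0.985), and without Oa1-/- replicate 1 its change was −0.37. Selplg read 88.4, 82.2 and 84.5 in Oa1-/- and 81.8, 39.8 and 46.2 in WT (log2 change 0.53). All its Oa1-/- arrays lay above all WT arrays, as for 4.92% of all probe sets. Tgfbr1, which most cells express, had a change of 0.10. P2ry12, a marker of resting microglia, read 79.4, 84.7 and 98.8 in Oa1-/- and 69.3, 93.7 and 59.9 in WT, so the groups overlapped.

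Tmem119 is also expressed by skeletal and other mesenchyme. The 10 mesenchyme markers had 8 negative and 2 positive changes (median −0.14), all 10 were well above the bacterial controls, and their summed signal ran from 79158 to 84369 in Oa1-/- and from 76388 to 91973 in WT. Their part in the Tmem119 difference was not tested.

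Markers of perivascular and tissue macrophages, which include those of the hyaloid vessels, had 5 positive and 6 negative changes among 11 tested of 17 measured (median −0.14). Pf4, a chemokine of fetal macrophages and platelets, read 622, 671 and 603 in Oa1-/- and 693, 771 and 810 in WT (log2 change −0.25, limma adjusted p = 0.985). Of the 11, only Pf4 had an unadjusted p below 0.05 (0.0421 in limma), in the negative direction, as for 2.46% of all probe sets. Ms4a7 read 128, 127 and 129 in Oa1-/- and 169, 196 and 152 in WT (log2 change −0.38, limma adjusted p = 0.985). In both, all Oa1-/- arrays lay below all WT arrays, as they did for 5.31% of all probe sets tested. The scavenger receptor Stab1 had a change of −0.19, which was −0.07 without WT replicate 2, and Dab2 −0.27, which was −0.11 without WT replicate 1. Igf1, which mesenchyme also makes, had a change of 0.03. Cd163, the haemoglobin scavenger receptor, read 4.26 to 18.5 in Oa1-/- and 2.25 to 21.2 in WT.

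Other blood-derived cells were checked beside the macrophages, since Lyz2, Tyrobp and Fcer1g are shared with some of them. Mast cell genes had 4 negative changes among 4 tested of 7 measured (median −0.47), and 2 of them had an unadjusted p below 0.05, in the negative direction, as had 2.46% of all probe sets. Cpa3, a mast cell protease, read 306, 266 and 304 in Oa1-/- and 499, 366 and 386 in WT (log2 change −0.48, SE 0.15, limma adjusted p = 0.985). Cma1, a chymase, read 122, 151 and 156 in Oa1-/- and 175, 208 and 225 in WT (log2 change −0.46, limma adjusted p = 0.985), and without both arrays that stood apart its change was −0.28. Hdc, which makes histamine, had a change of −0.86 on signals of 84.5, 15.3 and 34.1 in Oa1-/- and 39.8, 99.7 and 131 in WT, and without Oa1-/- replicate 2 the change was −0.47. Kit had a change of −0.03. Mcpt4, Tpsb2 and Ms4a2, which define mast cells too, were near the background and not tested. Their ratios of means, Oa1-/- over WT, were 0.36 for Mcpt4, 1.39 for Tpsb2 and 3.34 for Ms4a2. Ms4a2 read 27.7, 24.0 and 34.3 in Oa1-/- and 19.5, 1.41 and 4.83 in WT.

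Neutrophil and monocyte genes had 6 positive changes and 1 negative among 7 tested of 11 measured (median 0.40), with 0 at an unadjusted p below 0.05. S100a8 read 1242, 424 and 1300 in Oa1-/- and 618, 596 and 831 in WT, so Oa1-/- replicates 1 and 3 were above every WT array and replicate 2 below every one. S100a9 (log2 change 0.40) and Ngp (0.42) had the same order of Oa1-/- arrays around the WT range. The summed signal of the list was 3016, 1524 and 2808 in Oa1-/- and 1707, 1698 and 1919 in WT. Camp had a change of 0.55, which was 0.35 without Oa1-/- replicate 3, and Csf3r 0.62, which was 0.24 without WT replicate 3. S100a8 had a change of 0.38, which ran from 0.11 to 0.90 when 1 array at a time was left out. The Lyz2 signal was higher on Oa1-/- replicates 1 and 3 (467 and 460) than on replicate 2 (352), and the part of granulocytes in it was not tested. Of 9 lymphocyte genes measured, 8 lay under the filter, and Cd8a was tested with a change of 0.47. It read 105, 71.8 and 74.9 in Oa1-/- and 56.6, 65.4 and 45.4 in WT. Its mean of 69.8 lay just above the filter at 66.0, and 1 of its 5 probe sets was tested.

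The surrounding tissue was checked in the same way. The retina gene Atoh7, which drives the birth of ganglion cells, averaged 15407 ± 440 in Oa1-/- and 13788 ± 364 in WT (SD, n = 3 each), and Pmel, a melanosome protein of pigment cells, 9543 ± 492 in Oa1-/- and 9407 ± 1512 in WT. Endothelial genes, whose vessels hyaloid macrophages follow, had 10 positive and 2 negative changes among 12 (median 0.08), with 0 at an unadjusted p below 0.05; Kdr had a change of −0.07. The summed signal of the erythroid genes was 7161, 9164 and 10541 in Oa1-/- and 23712, 9349 and 3828 in WT. Most of it was the globin Hbb-y, at 19360, 7799 and 2752 in WT, while Alas2 read 437, 595 and 580 there. Hbb-y had a log2 change of −0.02 by the probe set used here and up to 0.11 by its others. On the same WT arrays, in the same order, the summed signal of the 10 macrophage genes was 4975, 5177 and 4755. Of the mesenchyme genes, Col1a2 had a change of 0.00643 by the probe set used here, and its 3 tested probe sets ran from −0.44 to 0.03. Twist1 read 596, 571 and 593 in Oa1-/- and 1012, 721 and 671 in WT (log2 change −0.42), Foxc1 had a change of −0.33 and Col1a1 −0.27. The 11 retina genes tested had 9 positive and 2 negative changes (median 0.07). Of these 11, 2 had an unadjusted p below 0.05, Atoh7 and Pax6, both in the positive direction, against 1.64% of all probe sets. Such a p in the negative direction was seen for 1 of 6 erythroid genes, Alas2, and 1 of 10 mesenchyme genes, Twist1. The share of all probe sets with such a p and a negative change was 2.46%.

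**Figure D4:**
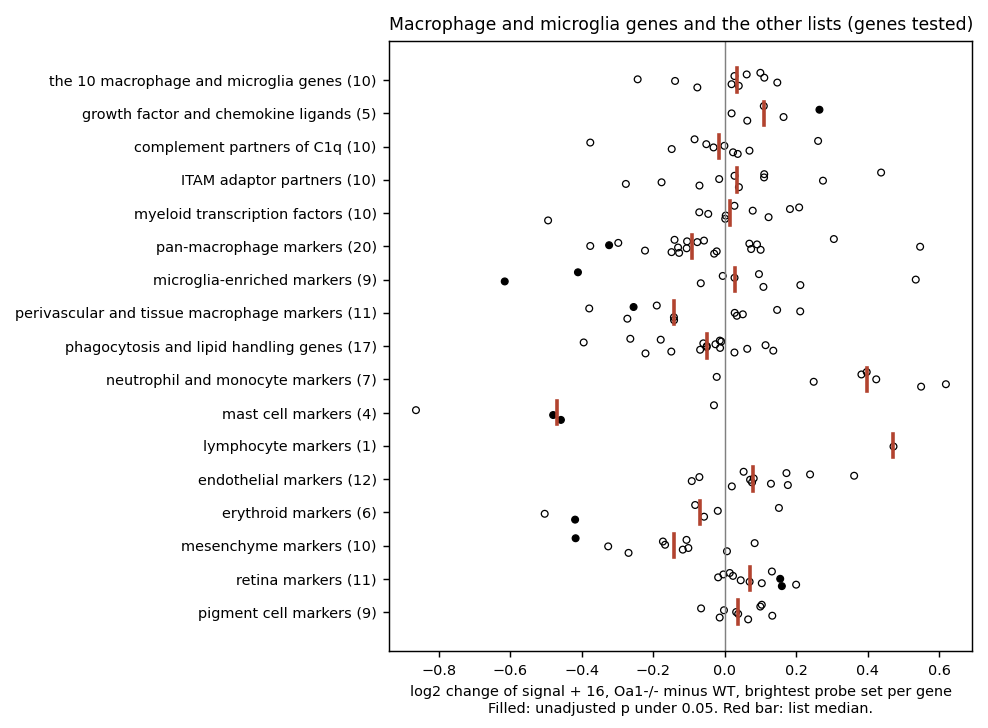
Log2 change (Oa1-/- minus WT, log2(signal + 16) scale) of the brightest probe set of each tested gene, by list, with the list median as a red bar and genes with an unadjusted limma p below 0.05 filled. The 10 macrophage and microglia genes lie between −0.24 and 0.15, and genes enriched in microglia between −0.62 and 0.53. Pan-macrophage genes lie between −0.38 (Fyb) and 0.55 (Dock2), both with a mean signal just above the filter. The mast cell list reaches −0.86 (Hdc, −0.47 without Oa1-/- replicate 2) and the neutrophil list 0.62 (Csf3r, 0.24 without WT replicate 3).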

How the data were processed

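The authors deposited a linear signal intensity for each probe set on each of the 6 arrays. It was computed with MAS5, per the submitters' processing notes, in a version not given in the sources used here. Each array had been scaled, judging by its values, to a mean of 500.002 after trimming 2% at each end. The 3 arrays per genotype limit the precision.

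Of 45101 probe sets, 64 controls were left out. A single symbol stood beside 34945 probe sets in the platform annotation, more than 1 beside 932 and no symbol beside 9160, and RefSeq (GRCm38.p6) changed 0 symbols of the 34741 it matched. Probe sets with a mean signal above the 40th percentile (66.0) were tested on log2(signal + 16), which understates changes of dim probe sets, with limma 3.58.1 in R 4.3.3 (lmFit, eBayes with an intensity trend, two-sided, Benjamini-Hochberg over 27029 probe sets, threshold 0.05). The code was tested on simulated data.

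The 10 genes and all lists were chosen with earlier results of these data known. Lists were described by counts and medians, on the brightest probe set per gene. Every probe set of the 10 genes was named, and from the other lists the brightest gene and, for immune and ligand lists, the 4 genes with the smallest p; other genes were named as known markers after their values were seen. Likeness was Pearson's r with the mean z-score of the 10 genes. Alternatives were other pseudocounts, filters, normalizations, variance settings, the replicate number as a block and leaving out arrays; leaving out both arrays that stood apart was added after seeing the data.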

Additional observations from a re-analysis of the deposited data

How the results depend on the processing

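The number of probe sets of the 10 genes past the adjusted threshold was 0 under every alternative run, with a lowest unadjusted p of 0.0298 and a lowest limma adjusted p of 0.394. Over all probe sets the count was 2 with median centring (Gpr143 and Kantr) and 2 with array weights (Slc25a29 and Kantr), and 0 otherwise. The number with an unadjusted p below 0.05 was 3077 with array weights. With the replicate block 0 probe sets passed, 885 had an unadjusted p below 0.05 and the lowest limma adjusted p was 0.775; the block changed no call. Same-numbered arrays of the genotypes had deviations from their group means correlated at −0.29, 0.16 and −0.23. Differently numbered arrays had correlations from −0.30 to 0.36. Whether same-numbered arrays were processed together is not stated in the labels and cannot be told from these values. The median change of the 10 genes' probe sets was −0.0557 with the filter at the 70th percentile, which left 4 of them, −0.074 with array weights and −0.0286 to 0.0877 leaving out 1 array at a time. Of 214 values of these probe sets, 31 had the opposite sign. Leaving out 1 array moved 12 of the 14 tested probe sets of these genes, and 37 of the 52 named genes of other lists, by over 1.5 times in at least 1 case. The changes of Csf1r 1419872_at and 1419873_s_at, Cx3cr1 1450020_at, C1qc and Tyrobp kept their sign throughout.

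Some log2 changes had the opposite sign, and the cause was not tested. With quantile normalization they were 0.029 for C1qb 1437726_x_at, 0.00136 for Kit, −0.0304 for Col1a2. With median centring they were 0.0142 for C1qb 1437726_x_at, 0.00105 for Kit, 0.0117 for Hbb-y. With array weights they were −0.0697 for Csf1r 1423593_a_at, −0.0782 for C1qb 1417063_at, −0.0156 for C1qb 1434366_x_at, −0.0559 for Mrc1, −0.15 for Lyz2, −0.0309 for Cxcl12, −0.0777 for Cx3cl1, −0.11 for Tgfb1, −0.12 for Csf1, 0.0911 for Cfp, −0.19 for Ctss, −0.0371 for Igf1, −0.0339 for Ngp, −0.14 for S100a8, −0.00483 for S100a9, 0.0452 for Kdr, −0.0125 for Col1a2. Without both arrays that stood apart, a setting chosen after seeing the data, they were −0.0487 for C1qb 1417063_at, −0.0377 for Fcer1g, −0.14 for Mrc1, −0.12 for Cxcl12, −0.16 for Tgfb1, 0.0333 for C3ar1, 0.0896 for Serping1, 0.0992 for Cfp, 0.0186 for Fcgr2b, −0.0662 for Ctss, 0.0426 for Kdr. Leaving out 1 array at a time, the changes ran from −0.14 to 0.17 for Csf1r 1423593_a_at, −0.31 to 0.054 for Aif1, −0.0407 to 0.10 for C1qa, −0.27 to 0.20 for C1qb 1437726_x_at, −0.13 to 0.16 for Lyz2, −0.038 to 0.18 for Csf1, −0.14 to 0.13 for Igf1, −0.0788 to 0.0238 for Kit, −0.74 to 0.67 for Hbb-y, −0.0993 to 0.0769 for Col1a2, −0.0968 to 0.14 for Pmel, −0.0381 to 0.0915 for C1qb 1434366_x_at, −0.026 to 0.0914 for C1qb 1417063_at, −0.11 to 0.18 for Mrc1, −0.0917 to 0.13 for Cxcl12, −0.16 to 0.26 for Tgfb1, −0.24 to 0.0489 for Serping1, −0.13 to 0.0375 for Kdr, −0.27 to 0.00184 for C3ar1, −0.65 to 0.0715 for Cfp, −0.0238 to 0.0903 for C1qbp, −0.00868 to 0.23 for Ctss.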

Other observations

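Genes of phagocytosis and lipid handling, with which macrophages clear dying cells, were measured in the same fit. Of 18 genes with a probe set, 17 were tested, 4 with a positive and 13 with a negative log2 change (Oa1-/- minus WT, median −0.05), and 0 had an unadjusted p below 0.05 in limma. Tyro3, a receptor for dying cells that neurons also express, read 238, 217 and 240 in Oa1-/- and 243, 271 and 336 in WT, so all Oa1-/- arrays lay below all WT arrays, as for 5.31% of all probe sets (log2 change −0.26). Its other tested probe set had a change of 0.0752. Lgals3, a galectin of activated macrophages, had a change of −0.39, the cholesterol exporter Abca1 −0.22, the bridging protein Mfge8 −0.18 and the lysosomal protein progranulin, Grn, 0.11. The 3 tested probe sets of Grn ran from −0.29 to 0.11, and without WT replicate 1 the value of 0.11 was 0.0122. In each of these 4 genes the groups overlapped by the probe set used here.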
